A study of Zea mays with 2 samples.

Results

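Packed loci are listed positions of the maize genome, within a set range of lengths, that lie close to their neighbours on both sides. RNA of endosperm, the kernel tissue that stores starch and protein, was sequenced 19 days after pollination from the fl4 (floury4) mutant and from wild type (WT) Zea mays, with 1 library for each genotype. A locus here is a distinct span (chromosome, start and end) of the deposited tables on chromosomes 1 to 10, and its level is the sum of the FPKM of the features listed on it. FPKM is a read density per kilobase of feature and per unit of mapped fragments. A locus was called packed when it was longer than 1100 bp and shorter than 20000 bp and had fewer than 2000 bp between it and the nearest listed span on each side. This rule selected 2693 packed loci among 58260 spans, 4.62% of all and 7.22% of the 37285 spans in that range of lengths. The groups are the fl4 mutant, which carries the floury4 allele, and the wild type. The labels give no background line, no other allele and no count of kernels or plants behind each library.

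The floury mutants of maize have soft, opaque kernels, and floury4 has been reported to lie in a gene for an alpha-zein, one of the alcohol-soluble storage proteins of the endosperm. Most of the maize genome consists of transposable elements, and genes sit between them singly or in short islands that are denser towards the chromosome ends. Neighbouring genes can share promoters, enhancers or a stretch of open chromatin, and in many eukaryotes adjacent genes are on average more alike in expression than distant ones. The files give positions and no gene names, so the roles of the loci are unknown here, and neither the tissue label nor the gene altered in fl4 could be checked against named genes. Only positions that carry signal in at least 1 library are listed, and both tables end at 65536 lines, so an unlisted gene may lie within a gap, and reads are not assigned to a strand.

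The gaps around packed loci had a median of 785 bp over 4839 gaps, against 10168 bp over all 58250 gaps between listed spans. Fewer than 500 bp separated 32.6% of them, 210 gaps were shorter than 100 bp, and 2 were overlaps of a single base. The packed loci themselves had a median length of 2959 bp, against 3066 bp for the 34592 loci of the same range of lengths that were not packed on both sides. More than 1 feature was listed on 412 packed loci (15.3%), with up to 4 on a locus, against 14.5% of the others. Packed loci therefore differed from the others in spacing and hardly in length or in the number of features. All packed loci together held 3.76% of the summed FPKM of fl4 and 3.74% of that of WT.

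Packed loci lay towards the chromosome ends. In the outermost 10% at either end of the listed span of each chromosome, 1146 of 11803 loci of the length range were packed (9.71%). The share was 7.25% in the next zone inwards, then 5.75% and 5.57%, and 4.92% (225 of 4574) in the zone around the middle. Among chromosomes the share ran from 6.48% on chromosome 7 to 8.49% on chromosome 5. Presence of transcript was likewise more frequent at the ends, with 72.0% of packed loci at 1 FPKM or more in the outermost zone and 56.4% in the middle zone.

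Transcript was present at most packed loci. At least 1 FPKM in either library was reached by 1836 of 2693 (68.2%, 95% Wilson interval 66.4% to 69.9%), against 63.3% (62.8% to 63.8%) of the loci that were not packed on both sides. By the number of close neighbours the share was 68.2% with both sides packed, 65.4% with 1 side packed and 61.9% with neither. These intervals count loci as independent and cover counting only. The levels of the loci that were present were much alike. The median packed locus stood at 8.55 FPKM in fl4 and 7.82 FPKM in WT, against 8.09 and 7.78 FPKM for the loci that were not packed on both sides. Very abundant transcripts were few. At least 100 FPKM was reached by 67 of the 1836 packed loci (3.65%), against 4.23% of the others, and at least 1000 FPKM by 2 packed loci and 54 others.

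The limit of 2000 bp did not mark a step in presence or level. Among loci whose wider gap was 1500 to 2000 bp, just inside the limit, 66.1% of 831 were present, with medians of 8.68 FPKM in fl4 and 8.08 in WT. Just outside, at 2000 to 2500 bp, 67.3% of 792 were present, with medians of 9.33 and 8.26 FPKM. At the tight end, the 320 packed loci with less than 500 bp on both sides were present in 72.8% of cases, at medians of 10.3 FPKM in fl4 and 9.90 FPKM in WT.

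A packed locus was more often present when its neighbours were present. With both neighbours at 1 FPKM or more, 976 of 1237 packed loci reached 1 FPKM (78.9%, Wilson interval 76.5% to 81.1%). With 1 such neighbour it was 692 of 1072 (64.6%, 61.6% to 67.4%), and with neither it was 168 of 384 (43.8%, 38.9% to 48.7%). Loci of the same length range with at least 2000 bp on both sides showed a shallower gradient, at 67.2%, 61.0% and 53.6% for both, 1 and neither neighbour. The distance between the highest and the lowest share was thus wider where the gaps were short. Within the outermost zone of the chromosomes the shares of packed loci were 80.3% with both neighbours present and 49.6% with neither. In the rest of the chromosomes they were 77.6% and 40.5%, so the gradient was seen in both zones. With a limit of 5 FPKM in place of 1 FPKM for presence, the shares were 62.3% and 30.1%.

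**Figure D1:**
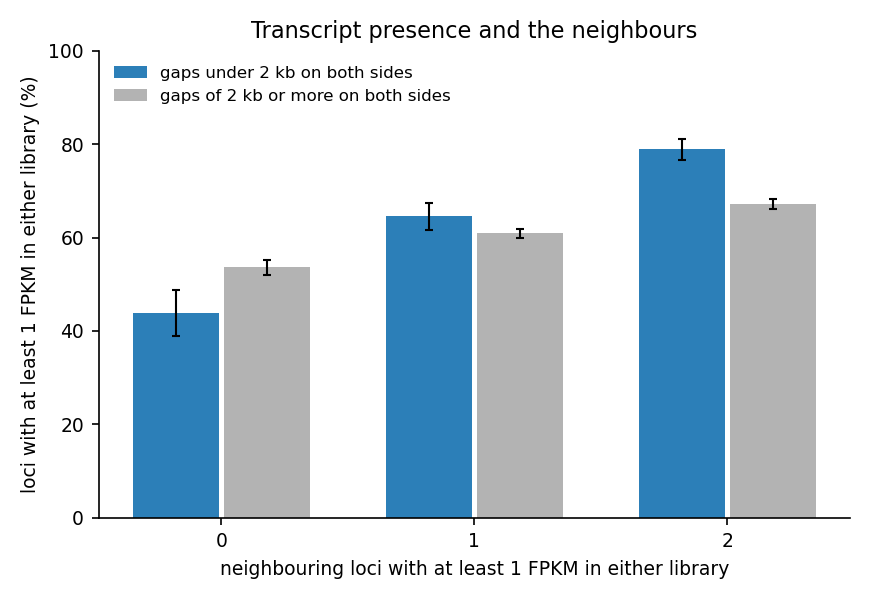
Share of loci of 1100 to 20000 bp with at least 1 FPKM in either library (y axis, percent) by the number of neighbouring loci that reach 1 FPKM (x axis), for packed loci (blue) and for loci with gaps of 2000 bp or more on both sides (grey). Bars are shares and error bars are 95% Wilson intervals over loci; the blue bars climb from 43.8% to 78.9% and the grey bars from 53.6% to 67.2%.

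Pairs of packed loci that lie side by side showed the same pattern. Of 547 such pairs, 294 (53.7%) had both loci at 1 FPKM or more, 165 (30.2%) had 1 and 88 (16.1%) had neither. Where the left locus was present the right one was present in 78.2% of 376 pairs, and where the left one was below 1 FPKM in 48.5% of 171 pairs. Over all adjacent loci of the length range the same 2 shares were 79.4% and 56.4% at gaps under 500 bp and 66.9% and 63.2% at gaps of 50 kb or more.

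Whether neighbours shared a level depended on whether weakly transcribed loci were counted. Over all 547 adjacent packed pairs, Spearman's correlation of log2(mean FPKM of both libraries + 1) was 0.31. Over adjacent loci of the length range Spearman's correlation was 0.28 at gaps under 500 bp (1968 pairs), 0.26 at 500 to 1000 bp, 0.19 at 1 to 2 kb, 0.14 at 2 to 10 kb, 0.10 at 10 to 50 kb and 0.08 at 50 kb or more (5677 pairs). The value therefore went down as the gap widened. Over the 294 packed pairs in which both loci reached 1 FPKM, Spearman's correlation was 0.14 and Pearson's r was 0.10. On this restricted set the values by gap were flat beyond 500 bp, with 0.15 at gaps under 500 bp and 0.08 to 0.09 at every wider class. Packed loci with at least 1 FPKM that were 2 to 50 places apart in their order along the chromosome had a Spearman's correlation between -0.03 and 0.01. These correlations run across loci of the same 2 libraries, which share depth and scaling, and genes are not replicates, so no p-value is given.

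**Figure D2:**
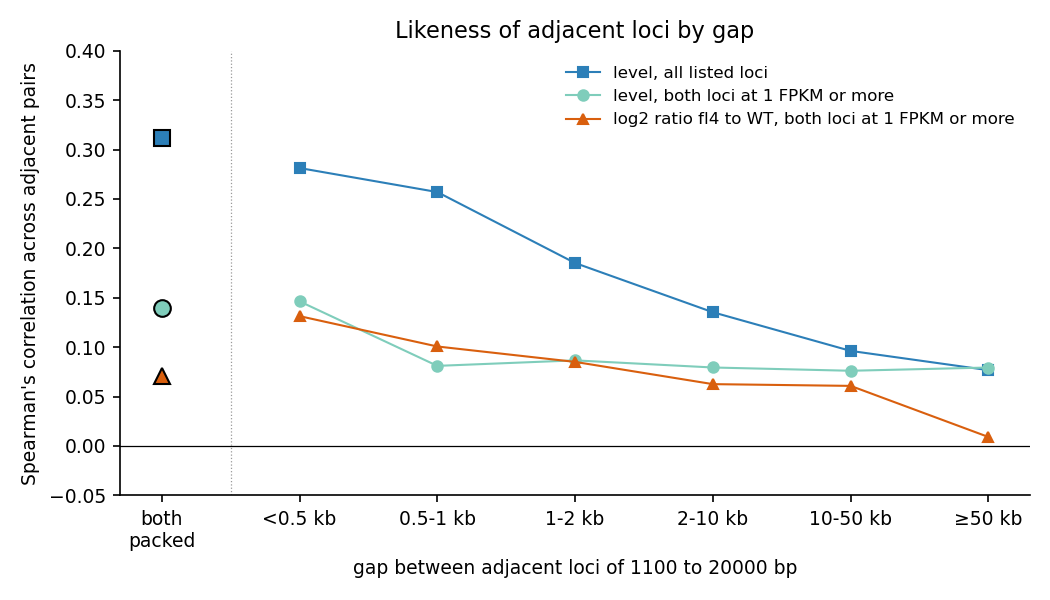
Spearman's correlation across pairs of adjacent loci (y axis) by the gap between them (x axis), for the level of all listed loci (squares), the level where both loci reach 1 FPKM (circles) and the log2 ratio of fl4 to WT where both reach 1 FPKM (triangles). Outlined symbols at the left are pairs of packed loci, with 0.31, 0.14 and 0.07; the squares go down from 0.28 to 0.08 as the gap widens.

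Among loci that were present, neighbours were commonly far apart in level. In 88 of the 294 packed pairs (29.9%) the 2 levels differed by 4-fold or more on the log2(FPKM + 1) scale, and the median difference was 1.11 log2 units. Among packed loci 10 places apart the median difference was 1.57 log2 units and 38.1% differed by 4-fold. Of 976 packed loci with both neighbours present, 317 (32.5%) were higher than both neighbours, 304 (31.1%) were lower than both and 355 (36.4%) lay between them. These shares were nearly equal, and the same counts were not taken for loci further apart.

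The most abundant packed loci stood far above the loci beside them. They were chosen for their level, so that their height over the neighbours is a description and no finding. The highest lay on chromosome 3 near 146.6 Mb, with 1807 FPKM in fl4 and 1362 FPKM in WT. Its neighbour 199 bp to the left stood at 6.67 FPKM in fl4 and 6.46 in WT, and the one 1014 bp to the right at 0.73 and 0.74 FPKM. The next lay on chromosome 1 near 296.02 Mb, with 1687 FPKM in fl4 and 1413 FPKM in WT, beside loci of 30.0 and 27.7 FPKM (fl4 and WT) on the left and of 73.5 and 71.8 FPKM on the right. A locus on chromosome 9 near 152.86 Mb, with 571 FPKM in fl4 and 549 FPKM in WT, had neighbours under 1 FPKM on both sides. The 10 highest packed loci exceeded the higher of their neighbours by 17.5 to 689 times. Of these 10 loci 7 were higher in fl4 and 3 lower, and none differed 2-fold. This tally rested on the scaling, with 5 higher and 5 lower both when centred on the median and with equal totals, and with 1 of the lower loci (chromosome 6 near 86.34 Mb) past 2-fold under the second of these. By log2 ratio, the genotypes differed most at chromosome 6 near 86.34 Mb, with 273 FPKM in fl4 and 500 in WT, and at chromosome 8 near 171.33 Mb, with 563 FPKM in fl4 and 323 in WT.

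The comparison of fl4 with WT asks how transcript levels in the mutant endosperm depart from normal ones. Most packed loci stood at similar levels in the mutant and WT. The log2 ratio was taken as log2((fl4 FPKM + 1)/(WT FPKM + 1)), which understates differences of weak loci, and loci past 2-fold on that scale were counted, by size alone. With 1 library per genotype no test and no error between plants can be given, and every difference describes these libraries. Of the 1836 packed loci present, 1763 (96.0%) lay within 2-fold. In fl4, 44 (2.40%) were 2-fold higher or more and 29 (1.58%) were 2-fold lower or more. Over all 34969 spans compared, 6.28% were 2-fold higher and 4.67% lower, and 10.9% differed in either direction. These background shares include short spans. Among loci of the same length range that were not packed on both sides, 2.73% were 2-fold higher and 2.07% lower. The share in either direction was 3.98% of packed loci (Wilson interval 3.17% to 4.97%), against 4.80% (4.52% to 5.09%) of those others, so that the intervals overlapped. Of the 1836 present packed loci, 3 were listed at 0 in 1 of the libraries, 2 in fl4 and 1 in WT, and a further 37 packed loci listed at 0 in 1 library were under 1 FPKM in the other. The 3 are 0.16% of the present packed loci, against 0.26% of the loci of the same length range that were not packed on both sides and 2.68% of all spans compared. None of the 3 reached 100 FPKM in the other library. In RNA of a whole tissue, fewer cells of a type and less RNA per cell cannot be told apart.

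**Figure D3:**
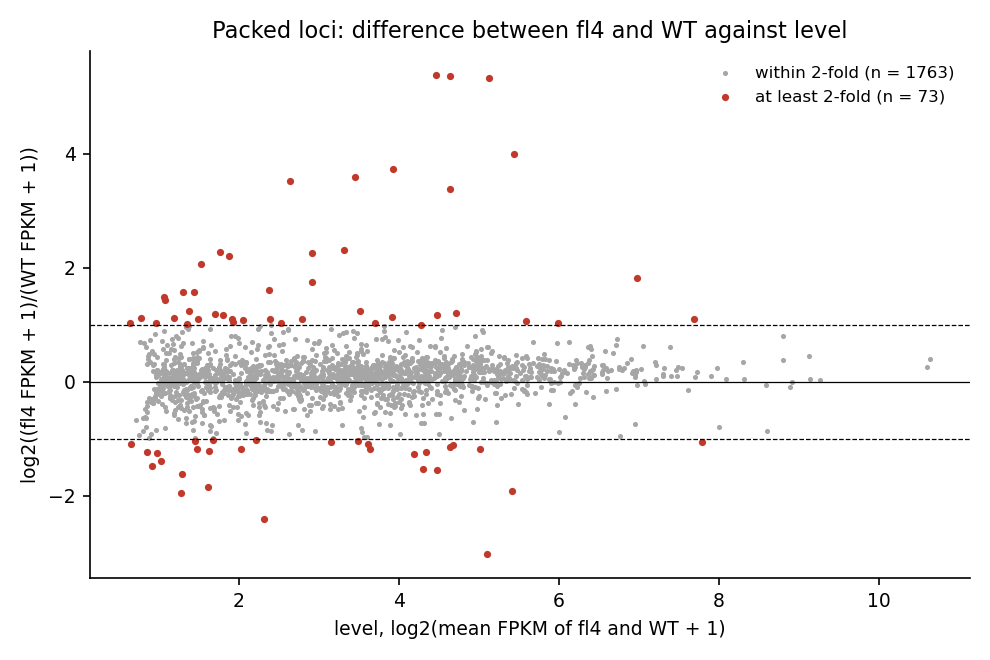
Log2 ratio of fl4 to WT (y axis, pseudocount 1 FPKM) against the level of each packed locus (x axis, log2 scale) for the 1836 loci with at least 1 FPKM in either library. Dashed lines mark 2-fold; 73 loci lie on or beyond them (red) and 1763 between them (grey).

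The counts depended on the pseudocount. They were 79 higher and 60 lower with a pseudocount of 0.1 FPKM, and 14 and 9 with 5 FPKM. With at least 1 FPKM required in both libraries they were 24 and 17, and with totals made equal without the 20 most abundant features they were 31 and 46, so that which direction was the more frequent rested on the scaling. The median log2 ratio was 0.092 over packed loci, against 0.072 over all spans compared, and under that last scaling it was -0.044 over packed loci. By level, 38 of 971 packed loci with 1 to 10 FPKM in the higher library differed 2-fold (3.91%), 32 of 798 with 10 to 100 FPKM (4.01%) and 3 of 65 with 100 to 1000 FPKM (4.62%). With the pseudocount of 1 FPKM, which understates differences of weak loci, the share was thus nearly level over this range. Shares by level were not taken with another pseudocount. By spacing, 3 of 233 present loci with less than 500 bp on both sides differed (1.29%), against 4.32%, 3.87% and 4.92% in the next wider classes. The last of these is the class just inside the limit of the rule (27 of 549), and just outside it 17 of 533 differed (3.19%).

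The direction of the difference was shared by slightly more packed pairs than not, and the ratios of neighbours were only weakly related. Spearman's correlation of the log2 ratio was 0.07 across the 294 packed pairs, and Pearson's r was 0.07. The ratios of a pair lay on the same side of the median of all spans in 164 pairs and on opposite sides in 130 (55.8% on the same side, Wilson interval 50.1% to 61.3%). For packed loci 2 to 50 places apart in their order along the chromosome the same share ran from 49.7% (10 places) to 53.1% (3 places, Wilson interval 50.8% to 55.4%). The interval of the adjacent packed pairs holds part of that range. Across adjacent loci of the length range the share was 54.3% at gaps under 500 bp and 49.8% at 50 kb or more. Spearman's correlation of the ratio in those gap classes was 0.13 under 500 bp, 0.10 at 500 to 1000 bp, 0.09 at 1 to 2 kb, 0.06 at 2 to 50 kb and 0.01 at 50 kb or more. Pearson's r of the ratio was higher in some classes, at 0.23 under 500 bp, 0.14 at 500 to 1000 bp, 0.13 at 1 to 2 kb and 0.39 at 2 to 10 kb, against 0.0062 at 10 to 50 kb and 0.041 at 50 kb or more. Over the 2350 adjacent pairs with at least 1 packed locus, Spearman's correlation of the ratio was 0.15 and Pearson's r was 0.20. Of 976 packed loci with both neighbours present, 315 (32.3%) lay on the same side as both neighbours and 212 (21.7%) on the side of neither.

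Large differences were shared more often. The 73 packed loci that differed 2-fold had 110 neighbouring spans at 1 FPKM or more. Of these neighbours 30 (27.3%, Wilson interval 19.8% to 36.3%) also differed 2-fold, 27 in the direction of the packed locus and 3 in the other. Neighbours were counted for each packed locus, so a pair of differing packed loci entered from both ends. The interval takes the neighbours as independent and covers counting only. Of the 2534 neighbours of packed loci that did not differ, 208 differed 2-fold (8.21%). The other 80 neighbours of the differing loci, 72.7%, lay within 2-fold. Neighbours of loci that were higher in fl4 had a median log2 ratio of 0.25 (65 spans), those of loci that were lower had a median of -0.30 (45 spans), and those of loci within 2-fold had a median of 0.08.

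Short neighbours and short gaps moved with this count. Of neighbours with a length of 1100 bp or less, 19 of 43 differed 2-fold beside a differing packed locus (44.2%), against 20.4% beside one that did not differ. Of neighbours within the length range of the packed loci it was 11 of 67 (16.4%), against 3.37%. At gaps under 500 bp it was 16 of 37 (43.2%) against 8.80%, and at wider gaps 14 of 73 (19.2%) against 7.88%. With at least 1 FPKM in both libraries it was 7 of 55 (12.7%) against 4.83%. In every one of these splits the share beside a differing locus was the higher. Shared differences were not particular to short gaps. Of 2415 adjacent pairs of the length range at gaps of 2 to 10 kb, 13 differed 2-fold in the same direction and 5 in opposite ones. In a further 187 only 1 locus differed. The same counts were 9, 1 and 57 of 1059 pairs under 500 bp, and 6, 1 and 159 of 2457 pairs at 50 kb or more. Whether such pairs are pieces of 1 gene listed as separate spans was not tested.

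**Figure D4:**
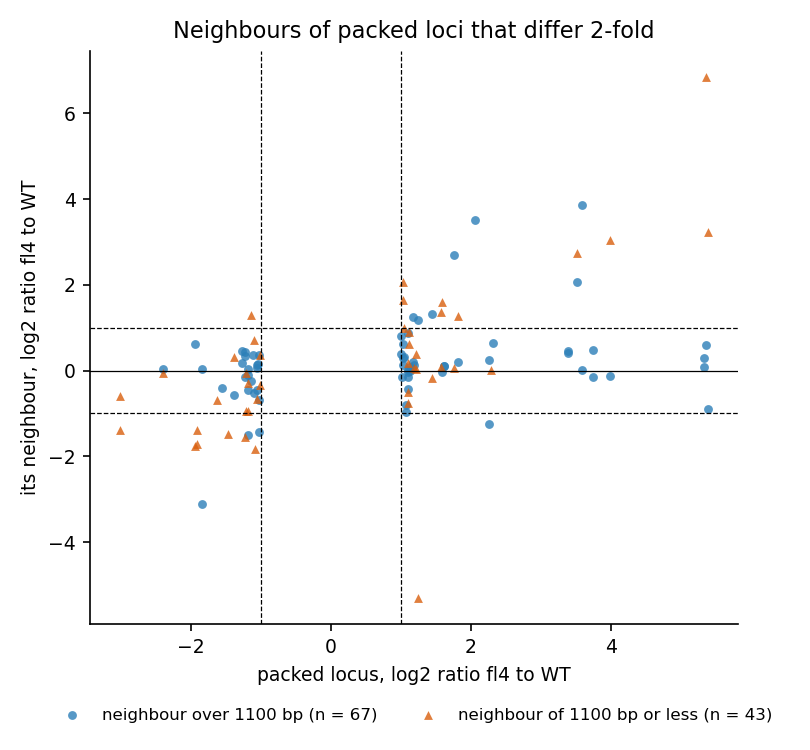
Log2 ratio of fl4 to WT of the neighbouring span (y axis) against that of the packed locus (x axis) for the 110 neighbours at 1 FPKM or more of packed loci that differ 2-fold; circles are neighbours over 1100 bp and triangles are shorter ones. Dashed lines mark 2-fold. Beyond both lines, 27 points lie in the same direction and 3 in opposite directions. A pair of packed loci that both differ is drawn from both ends.

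Adjacent pairs in which at least 1 locus was packed and both differed 2-fold numbered 28. Both were higher in fl4 in 15, both lower in 10, and the directions were opposite in 3. A span of 1100 bp or less was part of 19 of the 28, and a value listed at 0 was part of 8. Only 2 of the 28 pairs joined 2 packed loci, and both pairs were higher in fl4. On chromosome 2 near 31.93 Mb the left locus stood at 3.66 FPKM in fl4 and 0.12 in WT, and the right one, 1133 bp away, at 10.5 FPKM in fl4, with a listing of 0 in WT. On chromosome 4 near 10.21 Mb the left locus stood at 2.66 FPKM in fl4 and 0.54 in WT, and the right one, 280 bp away, at 3.85 and 1.15 FPKM. All of these levels are low in at least 1 library.

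The packed loci with the largest differences, among those with at least 10 FPKM in either library and above 0 in both, differed among themselves in what their neighbours did. On chromosome 7, at positions 8253464 to 8255723, a locus of 2260 bp had 42.2 FPKM in fl4 and 0.030 FPKM in WT, a log2 ratio of 5.39. A span of 90 bp lying 703 bp to its left stood at 94.1 FPKM in fl4 and 9.18 FPKM in WT. The locus of 7873 bp to its right, itself packed, went the other way with 43.7 FPKM in fl4 and 81.7 FPKM in WT, a log2 ratio of -0.89. So this locus had a neighbour that was higher in the mutant on one flank and a neighbour that was lower on the other.

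On chromosome 4, at positions 35922653 to 35927429, a locus of 4777 bp had 47.5 FPKM in fl4 and 0.18 FPKM in WT, a log2 ratio of 5.36. The span of 106 bp lying 488 bp to its right stood at 115 FPKM in fl4, with a listing of 0 in WT. The left neighbour, 3938 bp long, stood at 40.9 FPKM in fl4 and 26.6 FPKM in WT. The short right neighbour followed the packed locus, and the long left one stayed within 2-fold.

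In the other direction, a locus of 5614 bp on chromosome 1, at positions 46204629 to 46210242, had 6.51 FPKM in fl4 and 59.9 FPKM in WT, a log2 ratio of -3.02. Its left neighbour of 109 bp, only 51 bp away, stood at 1.10 FPKM in fl4 and 4.45 FPKM in WT. Its right neighbour of 226 bp stood at 6.06 FPKM in fl4 and 9.65 FPKM in WT. All 3 spans were lower in the mutant, the right one by less than 2-fold.

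On chromosome 8, at positions 131236886 to 131237989, a locus of 1104 bp had 16.8 FPKM in fl4 and 66.2 FPKM in WT, a log2 ratio of -1.91. The left neighbour of 239 bp stood at 15.3 FPKM in fl4 and 41.5 FPKM in WT, and the right neighbour of 846 bp at 14.7 and 50.5 FPKM. This was a block of 3 spans that all differed 2-fold in the same direction. Its levels were nearly equal in fl4 and spread more widely in WT.

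**Figure D5:**
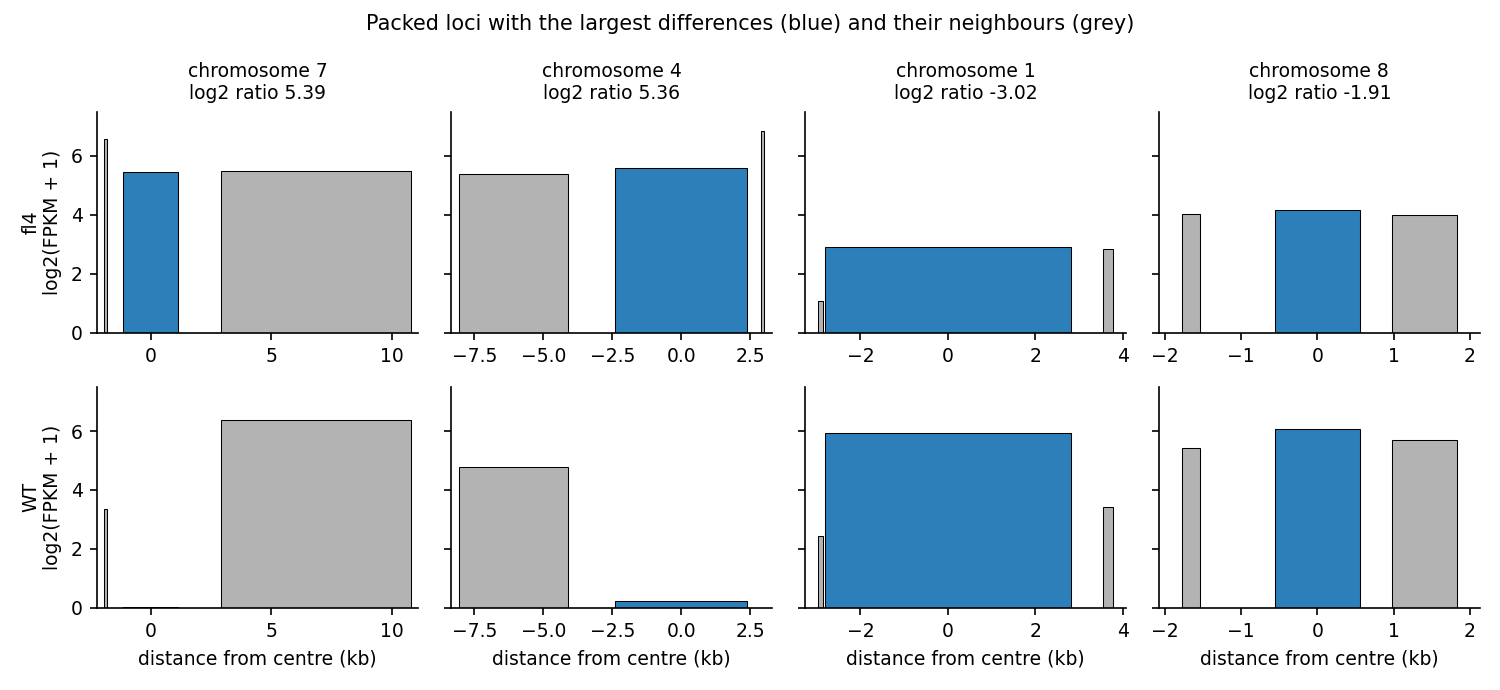
Level as log2(FPKM + 1) in fl4 (top row) and WT (bottom row) of the 2 packed loci with the largest positive and the 2 with the largest negative log2 ratio (blue), among those with at least 10 FPKM in either library and above 0 in both, and of their neighbours (grey), drawn to scale against distance from the centre of the packed locus in kb. The locus of chromosome 7 is at 42.2 FPKM in fl4 and close to 0 in WT while its right neighbour is lower in fl4; on chromosome 8 all 3 spans are lower in fl4.

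Further packed loci with large differences had neighbours of both kinds, some within 2-fold and some not. On chromosome 1 near 269.03 Mb a packed locus stood at 66.9 FPKM in fl4 and 0.69 FPKM in WT. Its left neighbour stood at 21.2 FPKM in fl4 and 17.0 in WT, and its right neighbour at 31.4 and 29.6 FPKM. On chromosome 1 near 274.51 Mb the values were 27.3 FPKM in fl4 and 1.12 FPKM in WT, with neighbours of 19.5 FPKM in fl4 and 13.7 in WT on the left and of 2.68 and 3.07 FPKM on the right. At both of these loci the neighbours on either side lay within 2-fold. On chromosome 10 near 132.51 Mb a locus stood at 80.5 FPKM in fl4 and 4.12 FPKM in WT. There the left neighbour of 686 bp was at 30.5 FPKM in fl4 and 2.83 in WT, while the packed locus on the right was at 11.8 and 13.0 FPKM. On chromosome 6 near 75.12 Mb the left neighbour of 2812 bp, at 37.0 FPKM in fl4 and 1.61 FPKM in WT, followed the packed locus, which stood at 19.3 and 0.68 FPKM. Of the 10 largest positive differences 6 of 19 present neighbours differed 2-fold in either direction, and of the 10 largest negative ones 5 of 15. Not all of these went the way of the packed locus. On chromosome 10 near 148.85 Mb a packed locus with a log2 ratio of 2.26 had a right neighbour at -1.24. On chromosome 1 near 249.07 Mb a packed locus at -1.14 had a right neighbour at 1.31.

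Lower packed loci were in places nearly alone in carrying transcript. On chromosome 5 near 189.04 Mb a locus stood at 9.14 FPKM in fl4 and 28.4 FPKM in WT between neighbours that were under 1 FPKM in both libraries. On chromosome 3 near 186.22 Mb a locus stood at 18.7 FPKM in fl4 and 43.9 in WT, with 1.06 FPKM in fl4 and 1.20 in WT on its left. On chromosome 8 near 133.18 Mb a locus at 9.70 FPKM in fl4 and 24.8 FPKM in WT lay between neighbours that were slightly higher in the mutant, the left at 161 FPKM in fl4 and 143 in WT and the right at 26.5 and 19.0 FPKM. Of the 3 packed loci of 100 to 1000 FPKM that differed 2-fold, the one on chromosome 2 near 195.91 Mb stood at 194 FPKM in fl4 and 54.4 FPKM in WT. Its left neighbour of 86 bp, 366 bp away, was at 500 FPKM in fl4 and 205 FPKM in WT.

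Packed loci formed short runs, in part by the rule itself. A run ended at any neighbour outside the length range, however close. The limit on both gaps was met by 1979 spans of 1100 bp or less and by 49 of 20000 bp or more. Of 2146 runs of consecutive packed loci, 1699 held a single packed locus, 373 held 2, 52 held 3, 18 held 4 and 4 held 5. In the 44 runs with at least 3 present loci, the highest and the lowest present locus of a run differed by a median of 4.91-fold (on the FPKM + 1 scale). No such run differed 2-fold in its summed FPKM. The log2 ratios of the sums lay between -0.90 and 0.72 with a median of 0.12, and 32 were above 0 and 12 below. With equal totals 19 were above and 25 below, and 1 run passed 2-fold. All present loci of a run lay above the median of all spans in 10 runs, below it in 2 runs and on both sides of it in 32.

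The longest runs show this mixture. On chromosome 3 near 223.74 Mb all 5 packed loci were present. From left to right their levels were 1.55, 22.2, 13.3, 4.29 and 0.98 FPKM in fl4, against 1.33, 18.1, 11.7, 4.11 and 1.09 FPKM in WT. The order of levels was the same in both libraries and no locus differed 2-fold. On chromosome 3 near 2.77 Mb the 5 packed loci stood at 0.73, 2.41, 2.90, 9.14 and 0.038 FPKM in fl4, against 0.85, 0.70, 3.35, 15.9 and 0.034 FPKM in WT. The second of these was higher in fl4 and the fourth lower, and the last had almost no transcript in either library. On chromosome 2 near 218.34 Mb the run of 5 had its outer loci under 1 FPKM and 3 present loci between them, at 11.9, 2.51 and 3.50 FPKM in fl4, against 13.1, 2.32 and 2.67 FPKM in WT. On chromosome 4 near 0.83 Mb only the last of 5 packed loci was present, at 1.14 FPKM in fl4 and 2.06 FPKM in WT.

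The runs with the largest summed differences, by log2 ratio, differed in how many of their loci moved. On chromosome 10 near 148.92 Mb, 3 packed loci stood at 26.8, 3.51 and 84.3 FPKM in fl4, against 26.2, 1.92 and 40.9 FPKM in WT, and the third gave nearly all of the difference. On chromosome 6 near 160.6 Mb, 3 packed loci stood at 60.6, 38.3 and 24.8 FPKM in fl4, against 52.9, 21.5 and 11.9 FPKM in WT, so that all 3 were higher in fl4. On chromosome 5 near 5.21 Mb, 4 packed loci stood at 1.12, 0.99, 2.21 and 6.59 FPKM in fl4, against 0.72, 0.87, 3.38 and 16.2 FPKM in WT, with the last giving most of the lower sum. The run on chromosome 1 near 296.0 Mb that holds the second highest packed locus stood at 26.2, 30.0 and 1687 FPKM in fl4, against 20.8, 27.7 and 1413 FPKM in WT.

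Across chromosomes the 2-fold differences of packed loci were unevenly spread, on small counts. On chromosome 10, 11 of 129 present packed loci differed (8.53%), 9 higher and 2 lower in fl4, and on chromosome 4 it was 12 of 196 (6.12%). On chromosomes 8 and 9 it was 3 of 157 (1.91%) and 2 of 148 (1.35%). Over all spans compared, the shares of these chromosomes were 12.8% on chromosome 10, 13.1% on chromosome 4, 11.4% on chromosome 8 and 10.9% on chromosome 9. Without the first 10 Mb of chromosome 4 and the stretch from 55 to 100 Mb of chromosome 3, packed loci counted 42 higher and 27 lower. Of the 1836 present packed loci, 1815 lay outside these stretches, so most of the differing ones lay there too. The share that differed 2-fold was 3.80% without the stretches and 3.98% with them. The few packed loci inside them thus differed more often, on small counts. These stretches were set apart as uneven with earlier results of these data known, so this is a description and no finding.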

How the data were processed

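The authors deposited FPKM values per feature for 1 fl4 and 1 WT endosperm library, per the file headers. The submitters' processing notes name Bowtie 0.12.2. The program behind the FPKM values, the genome build, the annotation, any filter and any pooling of the triplicates that the series design mentions are unknown. Each file ends at 65536 lines with its header, so features may have been cut off. It lists 65535 features in the same order, and 65315 of them on chromosomes 1 to 10 were summed per distinct span. Sequencing depth, and with it the precision of low values, is unknown.

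A gap is the number of bases between spans sorted by start. Log2 ratios used a pseudocount of 1 FPKM. With 1 library per genotype no test was run. Exact positions are printed for the 2 largest positive and 2 largest negative log2 ratios among loci with at least 10 FPKM in either library and above 0 in both. Without those limits on FPKM, the 10 highest loci, the 5 longest and 5 highest runs and, among runs with at least 3 present loci, the 5 with the largest ratios in each direction were taken, and examples within these sets, the next largest ratios and pairs that differ together were chosen after their values were seen. The members and analyses were chosen with earlier results of these data known. Alternatives covered pseudocount, filter, fold, scaling, gap limit, near or merged spans and uneven stretches. The correlation and call routines were tested on simulated data. The criterion for the correlation was changed from single draws to the mean over repeated draws after a single draw had missed its tolerance, and the routine equalled a direct computation in every draw. Software was Python 3.11.15, pandas 2.3.3, SciPy 1.17.1 and statsmodels 0.14.6.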

Additional observations from a re-analysis of the deposited data

Results flagged for a closer look

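Spans that met the limit on both gaps but were 1100 bp or shorter lie outside the comparisons and carried signal. They numbered 1979, with a median length of 479 bp, and summed to 27976.3 FPKM in fl4 against 25357.1 FPKM in WT. Of the 1248 with at least 1 FPKM, 309 differed 2-fold (24.8%), 171 higher and 138 lower in fl4, and 99 were listed at 0 in 1 library. Over all 34969 spans compared, most of them longer, 10.9% differed 2-fold. Of spans of 1100 bp or less beside packed loci that did not differ, it was 145 of 711 (20.4%). The share over all spans of 1100 bp or less was not taken, so whether the 24.8% is particular to close spacing was not tested. The difference between the sums could not be tested with 1 library for each genotype, and over all features the fl4 sum was 1.104 times the WT sum.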

How the results depend on the processing

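Summaries over packed loci were recomputed under 165 combinations of result and setting, of which 113 stayed within their limits (1.5 times for a count, the 95% interval for a share or median, 0.1 for a correlation), 51 moved beyond them and 1 reversed. Some of the 113 could not change by construction. The correlation of the level does not depend on the pseudocount of the ratio or on centring. Centring also leaves the correlation of the ratio and the share of pairs on the same side as they are. Dropping the filter cannot change the 2-fold counts, since a locus under 1 FPKM in both libraries cannot reach 2-fold with a pseudocount of 1 FPKM. The reversal was the median log2 ratio, 0.092 as reported and -0.044 under totals equalised after removal of the 20 most abundant features. It became 0.107, 0.058, 0.042 and 0.123 with a pseudocount of 0.1 FPKM, a pseudocount of 5 FPKM, no filter and a minimum of 5 FPKM, 0.022 and 0.045 when centred on the median and with trimmed mean scaling, and 0.107 with gaps under 1 kb. The counts of loci 2-fold higher and lower (44 and 29) changed to 79 and 60 under the pseudocount of 0.1 FPKM and to 14 and 9 under that of 5 FPKM. A minimum of 5 FPKM gave 26 and 16, and at least 1 FPKM in both libraries gave 24 and 17. They became 18 and 6 with gaps under 1 kb, 108 and 78 with gaps under 5 kb, 140 and 91 at 1.5-fold, and 13 and 2 at 4-fold. Equal totals gave 31 and 46, and spans listed for 1 feature only gave 28 and 20. By construction the gap limits and minimums change how many loci enter. The share differing 2-fold (3.98%) became 7.57% and 1.25% with the low and high pseudocount, 2.71% without a filter, 2.42% with 1 FPKM in both libraries, 12.6% at 1.5-fold and 0.82% at 4-fold. Under the same pseudocounts and folds the loci not packed on both sides gave 8.21%, 1.58%, 13.0% and 1.04%. Spearman's correlation of the level across packed pairs (0.14) became 0.31 without a filter, and stayed within 0.1 under every other setting run. That of the ratio (0.07) also stayed within 0.1, a limit wider than the value itself. It ran from 0.03 without spans under 100 bp from a neighbour to 0.15 over adjacent pairs with at least 1 packed locus. The share of pairs on the same side stayed within its interval under all of its settings. The count of packed pairs that differ 2-fold in the same direction (2) became 0 under 4 settings (pseudocount or minimum of 5 FPKM, 1 FPKM in both libraries or gaps under 1 kb), 6 with gaps under 5 kb, 1 without loci listed at 0, 5 at 1.5-fold and 1 at 4-fold. The cause of these changes was not otherwise tested.

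The next settings were chosen after seeing the data. The share of neighbours that differ 2-fold beside a differing packed locus (27.3%) became 12.7% with 1 FPKM in both libraries, 39.5% with gaps under 1 kb, 16.4% for neighbours of the length range, 44.2% for shorter ones and 19.2% at gaps of 500 bp or more. The share of packed loci present with both neighbours present (78.9%) became 62.3% at 5 FPKM and 75.6% with gaps under 5 kb. With neither neighbour present (43.8%) it became 30.1% at 5 FPKM and 49.6% in the outermost zone. The number of runs of 3 or more packed loci (74) became 18 with gaps under 1 kb and 415 with gaps under 5 kb. Of 150 recomputed log2 ratios of single loci under pseudocounts and scalings, 146 stayed on their side of 2-fold, 3 lower loci dropped within it with a pseudocount of 5 FPKM, and 1 lower locus passed it with equal totals. Higher and lower among the 10 highest loci (7 and 3) became 5 and 5 when centred on the median, 6 and 4 with trimmed mean scaling and 5 and 5 with equal totals, and among the 44 runs (32 and 12) they became 26 and 18, 28 and 16, and 19 and 25. No paired analysis was possible because there is 1 library of either genotype, and for the same reason no replicate was left out. What depth limits is unknown, since the files do not give it.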
